A study of Mus musculus with 16 samples.

Results

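Mouse chromosomes 7, 11 and 12 are described here by the histone marks around the starts of their genes, as 829 of the 3925 genes measured (327 on chromosome 7, 340 on chromosome 11 and 162 on chromosome 12). They were chosen because the counts far from their gene starts were higher in Bap1 cKO than in Bap1 WT libraries in all 4 marks measured. The change of these flank and promoter counts between the genotypes is therefore given as a description, with no test of its own. Chromatin immunoprecipitation followed by sequencing (ChIP-seq) was done on endosteal mesenchymal stromal cells (MSCs), the stromal cells of the inner bone surface, for H2AK119ub1, H3K27me3, H3K4me3 and H3K27ac. The cKO cells came from C57BL/6J mice of genotype Prx1-cre;Bap1fl/fl, in which the recombinase is active in limb mesenchyme and deletes the floxed alleles. The WT cells came from C57BL/6J mice of genotype Bap1fl/fl, which carry the floxed alleles without the recombinase. Each genotype and mark had 2 libraries, 16 in all. Whether paired libraries stem from different animals is not stated, so the p-values cover library-to-library spread that may be purely technical. No age or sex was stated for the mice. The antibody field of the libraries titled H3K4me3 names the antibody to H3K27ac, and the reverse; marks are named here by title. Input libraries and the Bap1 locus were not analysed here, so neither the amount of DNA per chromosome nor the deletion itself could be checked.

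BAP1 is a deubiquitinase that removes H2AK119ub1, the ubiquitin mark on histone H2A that Polycomb repressive complex PRC1 puts on. PRC2 adds H3K27me3, a mark of silenced developmental genes, which cannot share its lysine with the acetyl group of H3K27ac. H3K4me3 marks the starts of active or poised genes, and H3K27ac marks active promoters and enhancers. In mammalian promoters, stretches rich in the dinucleotide CG recruit both Polycomb complexes and the enzymes that write H3K4me3.

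The sequences shown first are those of the promoter with the lowest p for H3K4me3 in each direction on each chromosome. Their opposite directions within a chromosome were set by this choice. Hdgfl3, Jup and Gsc had more H3K4me3 in cKO cells, and Zfp78, Trim25 and Tnfaip2 had less. Each line holds 300 bases of the gene's own strand, 5′ to 3′, from 250 before to 50 after its start, as RefSeq gives them for GRCm38.p6. The capitals mark CG dinucleotides, which read the same on both strands. Hdgfl3 lies at chr7:81934410-81934709 on the minus strand, Zfp78 at chr7:6363058-6363357 on the plus strand, and Jup at chr11:100397741-100398040 on the minus strand. Trim25 lies at chr11:88999153-88999452 on the plus strand, Gsc at chr12:104473187-104473486 on the minus strand, and Tnfaip2 at chr12:111442411-111442710 on the plus strand.
Hdgfl3: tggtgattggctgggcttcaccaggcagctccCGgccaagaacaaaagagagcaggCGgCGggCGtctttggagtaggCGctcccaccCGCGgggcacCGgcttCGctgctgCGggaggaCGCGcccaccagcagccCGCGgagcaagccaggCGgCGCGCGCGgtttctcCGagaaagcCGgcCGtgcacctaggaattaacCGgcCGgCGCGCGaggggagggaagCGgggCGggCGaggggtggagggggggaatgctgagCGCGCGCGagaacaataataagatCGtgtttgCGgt
Zfp78: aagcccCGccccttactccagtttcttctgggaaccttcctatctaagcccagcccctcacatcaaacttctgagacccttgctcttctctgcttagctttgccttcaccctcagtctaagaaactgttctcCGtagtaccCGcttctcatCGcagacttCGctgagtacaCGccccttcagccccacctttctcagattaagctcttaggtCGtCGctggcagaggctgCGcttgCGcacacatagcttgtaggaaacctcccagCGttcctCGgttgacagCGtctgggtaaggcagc
Jup: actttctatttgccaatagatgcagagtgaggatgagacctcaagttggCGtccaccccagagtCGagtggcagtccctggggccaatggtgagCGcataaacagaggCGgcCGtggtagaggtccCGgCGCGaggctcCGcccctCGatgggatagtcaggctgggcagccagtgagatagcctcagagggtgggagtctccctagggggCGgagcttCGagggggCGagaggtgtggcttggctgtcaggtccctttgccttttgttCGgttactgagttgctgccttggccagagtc
Trim25: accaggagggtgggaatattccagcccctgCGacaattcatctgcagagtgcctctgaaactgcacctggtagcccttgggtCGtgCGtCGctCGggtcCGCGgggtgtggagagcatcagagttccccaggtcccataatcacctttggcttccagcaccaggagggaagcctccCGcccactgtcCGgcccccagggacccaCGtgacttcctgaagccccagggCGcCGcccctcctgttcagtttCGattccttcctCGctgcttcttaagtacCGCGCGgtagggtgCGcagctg
Gsc: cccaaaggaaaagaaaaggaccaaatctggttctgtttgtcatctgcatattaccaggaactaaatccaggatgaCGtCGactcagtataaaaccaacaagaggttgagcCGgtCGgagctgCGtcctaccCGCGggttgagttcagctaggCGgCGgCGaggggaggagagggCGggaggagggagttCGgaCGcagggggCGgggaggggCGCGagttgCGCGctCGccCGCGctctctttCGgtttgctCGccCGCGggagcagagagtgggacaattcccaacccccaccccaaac
Tnfaip2: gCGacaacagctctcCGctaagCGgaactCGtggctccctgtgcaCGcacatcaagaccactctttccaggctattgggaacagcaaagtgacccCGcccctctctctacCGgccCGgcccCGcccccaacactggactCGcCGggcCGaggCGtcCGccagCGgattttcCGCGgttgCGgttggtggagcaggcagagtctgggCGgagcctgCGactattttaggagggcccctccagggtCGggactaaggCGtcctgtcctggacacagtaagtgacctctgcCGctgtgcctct
The promoters higher in cKO held 36 CG dinucleotides at Hdgfl3, 14 at Jup and 25 at Gsc. The promoters lower in cKO held 13 at Zfp78, 18 at Trim25 and 23 at Tnfaip2. The share of G and C ran from 54.7% at Zfp78 to 68.7% at Hdgfl3. Of the promoters of the 3 chromosomes, 597 could be matched to a RefSeq sequence, and their median was 61.3% G and C and 21 CG dinucleotides. The 1901 promoters matched on other autosomes had a median of 62% and 20. At least 1 CG was found in 99.7% of the promoters of the 3 chromosomes and in 99.3% of the others, and 15 or more in 71.5% and 66.0%.

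The deposited counts cover 10 kb around each gene start, in 50 bp bins. The libraries held 1283020 to 10101047 counts in these windows, and each read was counted in 3 neighbouring bins. Flank counts, from the outer 1 kb at each end of the window, are given as a percentage of the flank counts of all 19 autosomes. For a single gene of the 3 chromosomes the median flank count was 40 to 140 per library, so single flanks are imprecise and are summed here over blocks of 20 Mb. Libraries of 1 group differed by at most 0.11 on the log2 scale in the flank share of chromosome 7, 11 or 12. Values are relative to the windows measured: a gain on some chromosomes is also a smaller share for the rest. Col1a1, a defining gene of bone-forming stroma on chromosome 11, had 289 and 246 CPM of H3K4me3 in cKO cells, against 363 and 325 CPM in WT cells at its promoter (CPM, promoter counts scaled to library size), above the median of the 3 chromosomes in both genotypes. Cd68 and Spn, blood cell genes, had 7.12 to 35.9 CPM of H3K4me3 in the 8 values, but H3K27ac at Cd68 was not low, with 159 and 116 CPM in cKO cells, against 112 and 138 CPM in WT cells.

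Flank counts of chromosome 7 were higher in cKO cells in every mark. For H2AK119ub1 chromosome 7 held 7.69% and 7.89% in cKO cells, against 5.76% and 5.73% in WT cells, and for H3K27me3 7.32% and 7.52% in cKO cells, against 5.54% and 5.67% in WT cells. In H3K4me3 it held 11.7% and 11.99% in cKO cells, against 7.50% and 7.36% in WT cells, and in H3K27ac 8.80% and 9.11% in cKO cells, against 5.86% and 6.17% in WT cells. No cKO value overlapped a WT value. The log2 difference, cKO over WT, was 0.44 ± 0.02 (SE, n = 2 each) for H2AK119ub1, 0.40 ± 0.03 for H3K27me3, 0.67 ± 0.02 for H3K4me3 and 0.57 ± 0.04 for H3K27ac, which are folds of 1.36, 1.32, 1.59 and 1.49.

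Chromosome 12 gave values of the same size from fewer genes. It held 3.71% and 3.84% of the H2AK119ub1 flank counts in cKO cells, against 2.89% and 3.01% in WT cells, and 4.01% and 3.82% of those of H3K27me3 in cKO cells, against 2.91% and 3.13% in WT cells. Its share of H3K4me3 was 4.44% and 4.43% in cKO cells, against 2.91% and 2.99% in WT cells, and of H3K27ac 4.16% and 4.02% in cKO cells, against 2.81% and 2.88% in WT cells. The genotypes did not overlap in any mark, and the log2 differences were 0.36 ± 0.04, 0.37 ± 0.06, 0.59 ± 0.02 and 0.52 ± 0.03 in the same order. The summed H3K4me3 difference was not spread evenly over the genes. The median of the 162 single genes was 0.14 in that mark, and 92 of them (56.8%) lay above 0. Between 90 and 100 Mb (7 genes) it was 1.91 ± 0.22, against 0.03 ± 0.10 between 110 and 120 Mb (23 genes). Chromosome 11, the chromosome with most genes in the data, held 11.8% and 11.5% of the H2AK119ub1 flank counts in cKO cells, against 9.34% and 9.19% in WT cells, with a log2 difference of 0.33 ± 0.02. The differences in the other marks were 0.29 ± 0.01 for H3K27me3, 0.40 ± 0.01 for H3K4me3 and 0.48 ± 0.02 for H3K27ac, again without overlap.

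These values were not the highest in every mark. Chromosome 4, which was not among those chosen, had log2 differences of 0.38 ± 0.06, 0.45 ± 0.02, 0.48 ± 0.03 and 0.47 ± 0.02, above those of chromosomes 11 and 12 in both Polycomb marks. Chromosomes 5, 9 and 10, also not chosen, were higher in cKO without overlap in all 4 marks as well. Chromosome 9 had 0.21 ± 0.02, 0.21 ± 0.01, 0.34 ± 0.01 and 0.26 ± 0.04. Chromosome 13 reached 0.42 ± 0.06 in H3K4me3, against -0.03 ± 0.02 in H3K27me3. Chromosome 16 lay at the other end in H2AK119ub1 and H3K4me3, with -0.40 ± 0.01 and -0.66 ± 0.04. On chromosome 7 the difference was present on both sides of the genes: the upstream flank gave 0.48 ± 0.01 and the flank inside the gene 0.40 ± 0.02 for H2AK119ub1. On chromosome 12 the H3K4me3 difference was 0.41 ± 0.01 upstream and 0.78 ± 0.04 inside.

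**Figure D1:**
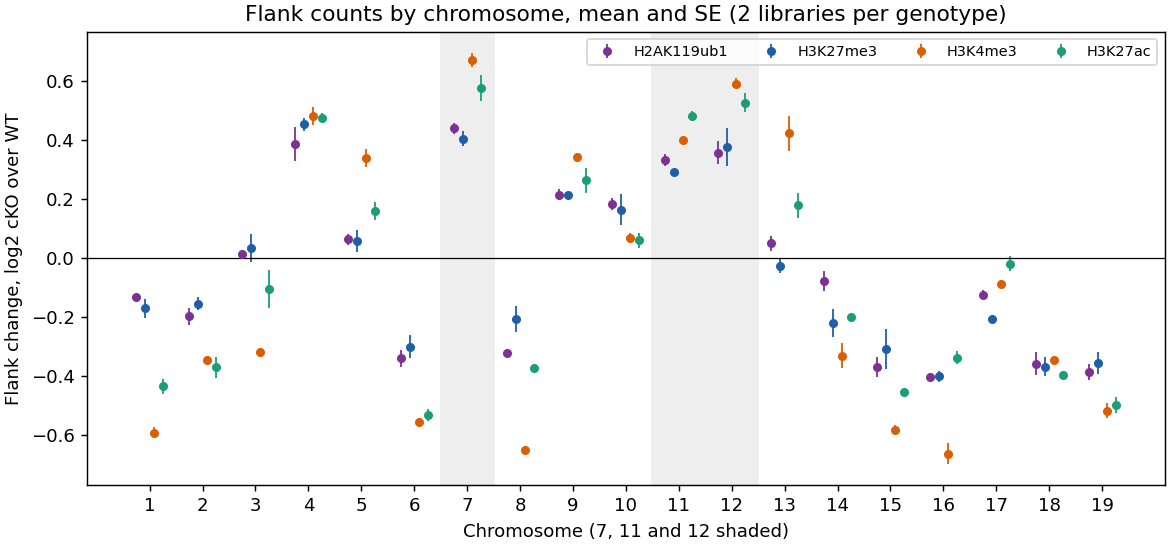
Flank change of each autosome, log2 of cKO over WT (vertical axis), by chromosome (horizontal axis) and mark (colour); points are means and bars SE of 2 libraries per genotype, with chromosomes 7, 11 and 12 shaded. The shaded chromosomes lie between 0.29 and 0.67, as does chromosome 4 at 0.38 to 0.48, while chromosome 16 lies between -0.66 and -0.34.

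In blocks of 20 Mb, summed flank counts were higher in cKO in every block of chromosomes 7 and 12 but not of chromosome 11. The 3 chromosomes gave 21 blocks with at least 5 genes. Both cKO libraries lay above both WT libraries in the flanks of 18 blocks in H2AK119ub1 (39.5% of all 129 autosomal blocks did so), 17 in H3K27me3 (34.1%), 17 in H3K4me3 (32.6%) and 18 in H3K27ac (33.3%). The chromosomes were chosen by this contrast, so nothing is read from these counts against the autosomal share. The median over the 21 blocks was 0.41 in H2AK119ub1, 0.43 in H3K27me3, 0.48 in H3K4me3 and 0.53 in H3K27ac on the log2 scale, against -0.10, -0.13, -0.33 and -0.18 over the 108 blocks of other autosomes. Single genes were less uniform, most of all in H3K4me3. The H3K4me3 flank difference was above 0 at 498 of the 829 genes (60.1%), against 29.5% on other autosomes. In H2AK119ub1 it was above 0 at 659 (79.5%), against 43.4%.

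All 8 blocks of chromosome 7 and all 6 of chromosome 12 had both cKO libraries above both WT libraries in the flanks of all 4 marks. H2AK119ub1 was the most even mark along chromosome 7, from 0.33 to 0.57, while H3K4me3 ran from 0.35 to 0.95. The highest H3K4me3 value was that of the seventh block of chromosome 7 (120 to 140 Mb, 43 genes), which held 2.36% and 2.44% in cKO cells, against 1.18% and 1.30% in WT cells. Its H3K27ac difference, 0.85 ± 0.05, was the highest of the 21 blocks in that mark too, while its H2AK119ub1 difference was 0.41 ± 0.03 and its H3K27me3 difference 0.30 ± 0.10. The last block of chromosome 7, from 140 Mb on, where Igf2 and H19 lie, had the lowest H3K27me3 difference of that chromosome, 0.13 ± 0.11. Its library values were 0.648% and 0.656% in cKO cells, against 0.643% and 0.549% in WT cells, so the groups were nearly touching. On chromosome 12 the last block, from 100 Mb on, with Gsc, Tnfaip2 and Dio3, had the lowest values of the chromosome in H2AK119ub1 (0.27 ± 0.05), H3K27me3 (0.20 ± 0.12) and H3K4me3 (0.23 ± 0.12). The third block of chromosome 12 (40 to 60 Mb), with Foxa1 and Psma6, had the highest H3K27me3 and H3K27ac values of the chromosome, 0.73 ± 0.07 and 0.81 ± 0.03, but 0.27 ± 0.09 in H3K4me3.

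The first 4 blocks of chromosome 11, between its start and 80 Mb, go against the label of a gain. Their median flank difference was -0.05 in H2AK119ub1, -0.05 in H3K27me3, -0.25 in H3K4me3 and -0.17 in H3K27ac, and in H3K4me3 both cKO libraries lay below both WT libraries in all 4 of them. Over the 21 blocks this was so in 2 for H2AK119ub1 (47.3% of all autosomal blocks), 2 for H3K27me3 (45.0%), 4 for H3K4me3 (56.6%) and 3 for H3K27ac (54.3%). The block from 60 to 80 Mb held 1.52% and 1.63% of the H3K4me3 flank counts in cKO cells, against 1.70% and 1.70% in WT cells. The 3 blocks from 80 Mb on, with 221 genes, gave medians of 0.43, 0.47, 0.61 and 0.64. The block from 100 to 120 Mb alone held 5.27% and 5.17% of the H2AK119ub1 flank counts in cKO cells, against 3.69% and 3.65% in WT cells, and 5.79% and 5.91% of those of H3K27ac in cKO cells, against 3.34% and 3.50% in WT cells. Without the first 4 blocks of chromosome 11 the median over blocks was 0.56 in H3K4me3.

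**Figure D2:**
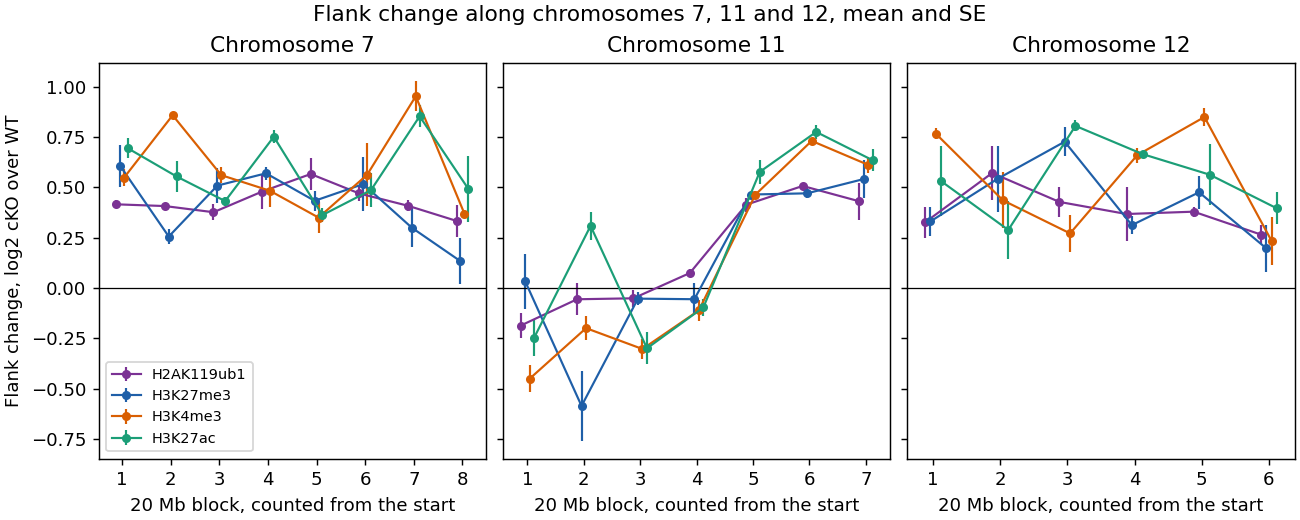
Flank change, log2 of cKO over WT (vertical axis), in 20 Mb blocks counted from the start of chromosomes 7, 11 and 12 (horizontal axis), by mark (colour), with SE bars from 2 libraries per genotype. All blocks of chromosomes 7 and 12 lie above 0, and on chromosome 11 the values pass from a median near or below 0 in the first 4 blocks to 0.41 or more in the last 3.

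Taken in order, the 340 genes of chromosome 11 changed level near 95 Mb. The single split with the least squared deviation, at least 20 genes from either end, fell between Acsf2 and Col1a1 for H2AK119ub1 and between Col1a1 and Pdk2 for H3K27me3 and for H3K27ac. The gene starts of Acsf2, Col1a1 and Pdk2 lie at 94.602, 94.936 and 95.041 Mb of GRCm38. In H3K4me3 the split lay farther on, between Osbpl7 at 97.051 Mb and Tbkbp1 at 97.151 Mb. With the 4 marks averaged it fell between Pdk2, a pyruvate dehydrogenase kinase gene, and Fam117a at 95.337 Mb, with 148 genes before and 192 after. The median flank difference of single genes was -0.13 before the split and 0.57 after it. This place was found in these data, so the difference across it is a description.

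The step lay in the difference between the genotypes, and the summed flanks on either side give it per library. After the split chromosome 11 held 7.84% and 7.56% of the H2AK119ub1 flank counts in cKO cells, against 5.46% and 5.35% in WT cells, and 7.08% and 6.89% of those of H3K27me3 in cKO cells, against 4.77% and 4.82% in WT cells. For H3K4me3 the shares there were 8.97% and 8.92% in cKO cells, against 5.59% and 5.47% in WT cells, and for H3K27ac 9.86% and 9.65% in cKO cells, against 5.44% and 5.69% in WT cells. The log2 differences were 0.51 ± 0.03, 0.54 ± 0.02, 0.69 ± 0.02 and 0.81 ± 0.04, with no overlap. Up to Pdk2 they were 0.03 ± 0.01, -0.07 ± 0.02, -0.23 ± 0.02 and -0.17 ± 0.02. The 20 genes next to the split on its far side held 1.18% and 1.13% of the H3K27me3 flank counts in cKO cells, against 0.668% and 0.667% in WT cells, a log2 difference of 0.79 ± 0.03. The 20 genes up to Pdk2 held 0.65% and 0.687% in cKO cells, against 0.678% and 0.675% in WT cells, so the genotypes overlapped there. The Polycomb and active marks parted just before the step: between 80 and 90 Mb (18 genes, among them Ccl7, Ccl9 and Tbx2) the flank difference was 0.25 ± 0.05 in H2AK119ub1 and 0.23 ± 0.09 in H3K27me3, but -0.55 ± 0.04 in H3K4me3 and -0.79 ± 0.09 in H3K27ac. Such a parting was not particular to that stretch. Between 40 and 50 Mb (8 genes) H3K27me3 had 0.76 ± 0.10, against -0.95 ± 0.16 in H3K4me3 and -0.86 ± 0.43 in H3K27ac, with 0.11 ± 0.08 in H2AK119ub1.

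**Figure D3:**
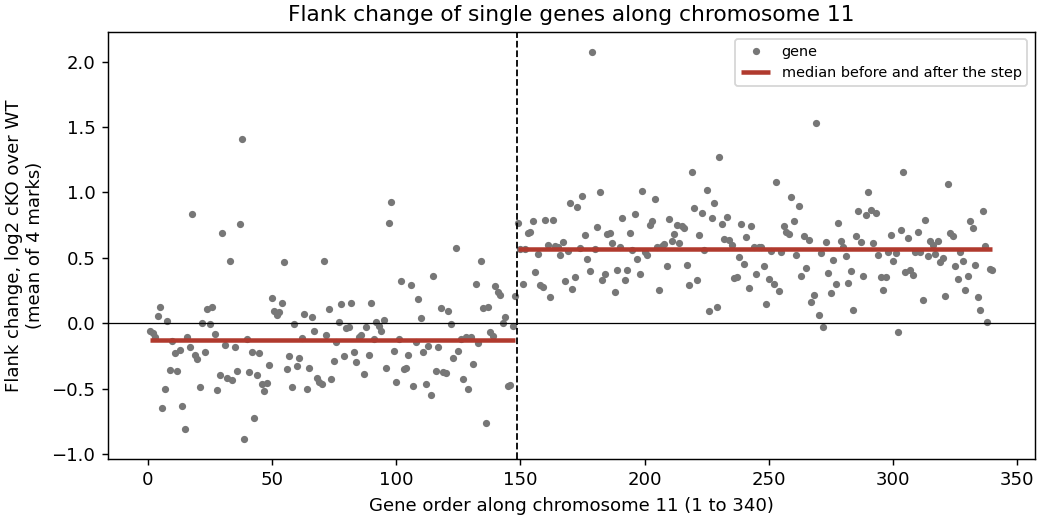
Flank change of each of 340 genes, the mean over 4 marks of log2 cKO over WT (vertical axis), in their order along chromosome 11 (horizontal axis); grey points are genes, red lines the medians of -0.13 and 0.57, and the dashed line the split after gene 148. Points after the split lie mostly above 0 and points before it around or below 0.

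Each gene in the deposited table carries the mark UP or DOWN, without a statement of the contrast behind it. UP was borne by 600 of the 829 genes (72.4%), against 1249 of the 2960 genes of other autosomes (42.2%). On chromosome 11 it was borne by 165 of the 192 genes from Fam117a on (85.9%), against 73 of the 148 up to Pdk2 (49.3%). Chromosome 7 had 76.8% and chromosome 12 68.5%, while chromosome 4, at 75.2%, again lay with them. On chromosomes 7 and 12 and on chromosome 11 from Fam117a, median Polycomb flank counts were higher in cKO at genes of either mark. The median H2AK119ub1 flank difference was 0.46 at UP genes and 0.42 at DOWN genes of chromosome 7, and 0.55 and 0.37 on chromosome 11 from Fam117a. Up to Pdk2 it was -0.06 at UP genes and 0.15 at DOWN genes, and in H3K27me3 -0.35 and 0.17. In H3K27me3 the DOWN genes had the higher median, 0.58 against 0.40 at UP genes of chromosome 7, and 0.78 against 0.25 on chromosome 12. In H3K27ac it was the UP genes, with 0.70 against 0.12 on chromosome 7 and 0.76 against 0.01 on chromosome 12. On other autosomes the DOWN genes had medians of -0.13 in H2AK119ub1, -0.02 in H3K27me3, -0.59 in H3K4me3 and -0.39 in H3K27ac. The UP genes there had -0.03, -0.13, -0.06 and 0.34 in the same order. DOWN genes were thus the higher in H3K27me3 and UP genes in H3K27ac on other autosomes too.

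Across the window the profile of the 3 chromosomes lay above that of the other autosomes at every distance from the gene start, in each mark. In H2AK119ub1 the log2 difference was between 0.33 and 0.53 in the 10 steps of 1 kb, against -0.12 to 0.03 on other autosomes. H3K4me3 and H3K27ac had higher differences at the gene start itself. In the first 1 kb inside the gene H3K27ac stood at 0.78, against 0.50 at the inner flank. The other autosomes had 0.04 and -0.20 at the same places. H3K27me3 went the other way, with its lowest value, 0.12, in the first 1 kb inside the gene. Its highest value, 0.53, lay between 2 and 1 kb upstream. On other autosomes H3K27me3 had -0.21 and 0.07 at these 2 places. The share of H3K27ac counts lying within 2 kb of the gene start was 67.8% and 66.6% on the 3 chromosomes in cKO cells, against 63.6% and 63.8% in WT cells. On other autosomes the same share was 66.2% and 64.9% in cKO cells, against 62.7% and 63.4% in WT cells. For H2AK119ub1 the share on the 3 chromosomes was 44.1% and 43.3% in cKO cells, against 43.2% and 41.7% in WT cells.

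**Figure D4:**
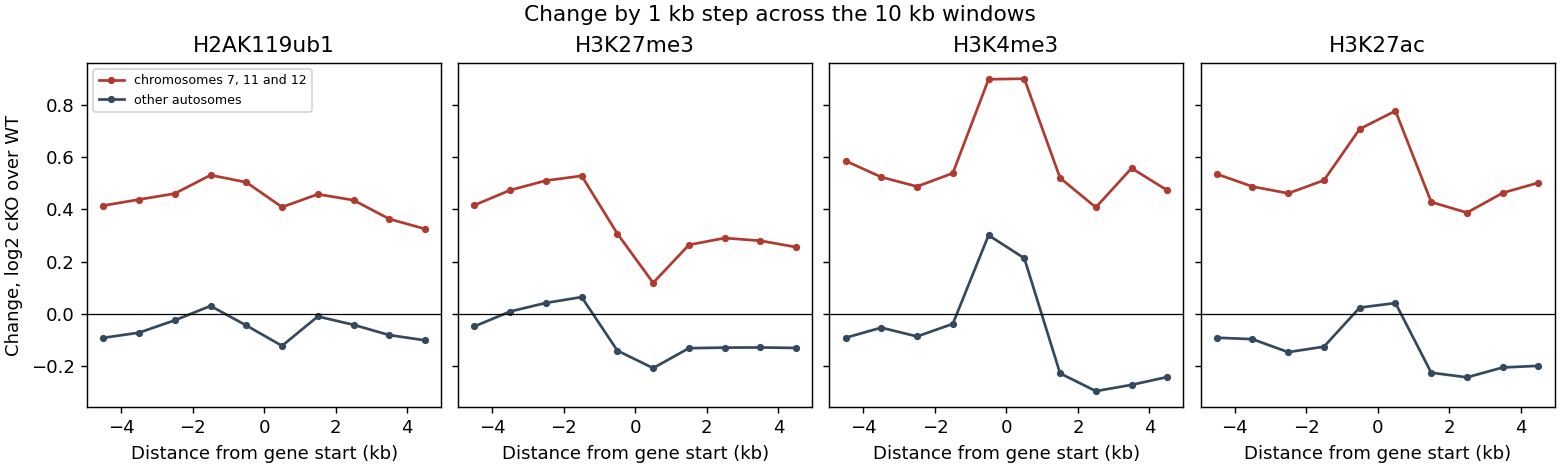
Change, log2 of cKO over WT (vertical axis), in 1 kb steps by distance from the gene start (horizontal axis) for each mark; the red line is chromosomes 7, 11 and 12 and the dark line the other autosomes, both relative to autosomal flank counts. The red line lies above the dark one at every step, and both rise near the gene start in H3K4me3.

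Promoters, taken as the 4 kb around each gene start, followed the flanks in the medians over blocks but not in every block. Between 20 and 40 Mb of chromosome 11 H3K4me3 was -0.20 ± 0.06 in flanks but 0.61 ± 0.02 in promoters. In the last block of chromosome 12 H3K27me3 was 0.20 ± 0.12 in flanks, against -0.01 ± 0.04 in promoters, where the genotypes overlapped. The promoter median over the 21 blocks was 0.42 in H2AK119ub1, 0.35 in H3K27me3, 0.56 in H3K4me3 and 0.53 in H3K27ac. Both cKO libraries lay above both WT libraries in 17 blocks for H2AK119ub1 (34.9% of all), 16 for H3K27me3 (39.5%), 18 for H3K4me3 (32.6%) and 18 for H3K27ac (31.8%). For H2AK119ub1 the median promoter had 118.6 and 115.4 CPM in cKO cells, against 90.0 and 88.4 CPM in WT cells. On other autosomes it had 116 and 112 CPM in cKO cells, against 117 and 112 CPM in WT cells. The median H3K4me3 promoter of the 3 chromosomes had 242 and 236 CPM in cKO cells, against 148 and 148 CPM in WT cells.

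In the test of single promoters over the whole table (edgeR quasi-likelihood, Benjamini-Hochberg adjusted p at or under 0.05), most of the called promoters of the 3 chromosomes were higher in cKO. H2AK119ub1 was higher at 325 and lower at 20 of 822 tested (16.7% and 16.4% of all promoters). H3K27me3 was higher at 165 and lower at 59 of 821 (12.4% and 15.6%). H3K4me3 was higher at 573 and lower at 80 of 824 (40.5% and 31.8%), and H3K27ac at 474 and 82 of 823 (30.9% and 29.1%). The contrast chose the chromosomes, so these counts are given beside the shares of all promoters and nothing is read from the difference. The H2AK119ub1 calls depended on both cKO libraries: 3 promoters were called higher without cKO replicate 1, and 69 higher and 4 lower without cKO replicate 2. Without WT replicate 1, 278 were higher and 9 lower. For H3K27me3 89 were higher and 34 lower without cKO replicate 1, and 106 were higher without cKO replicate 2. Where 1 library of a genotype was left, it was taken to vary like the other pair.

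Fewer promoters were called relative to the flanks of their 20 Mb block. On chromosome 11 the block from 80 to 100 Mb spans the step near 95 Mb, so its offset mixes both sides. When each promoter was tested relative to the flank counts of its own 20 Mb block, 28 were higher and 19 lower in H2AK119ub1 (2.73% and 2.98% of all promoters). In H3K27me3 69 were higher and 85 lower (9.45% and 11.2%), in H3K4me3 274 and 163 (37.9% and 18.7%), and in H3K27ac 198 and 139 (23.5% and 20.8%). In H3K27me3 falls outnumbered rises, as they also did over all promoters, whereas on the 3 chromosomes rises outnumbered falls without the offset. The shares called in H3K27me3, 8.4% higher and 10.4% lower of the 821 tested, were near those of all promoters. The median promoter of the 3 chromosomes then stood at 0.08 in H2AK119ub1 and 0.04 in H3K27me3, against 0.47 and 0.40 before. It stood at 0.12 in H3K4me3 and 0.11 in H3K27ac, against 0.65 in each before. Library sizes taken from the flanks of other autosomes moved the median of all promoters to 0.17, 0.20, 0.36 and 0.22, and gave 439 higher and 5 lower in H2AK119ub1 and 230 and 52 in H3K27me3.

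A rise in all 4 marks at 1 promoter was called at 53 of the 821 promoters tested in every mark (2.43% of all promoters). Of these 53, 40 were among the 192 of chromosome 11 from Fam117a on, 11 on chromosome 7 and 2 on chromosome 12. Relative to block flanks a rise in all 4 marks was called at 0 of the 821. On other autosomes it was called at 4 of 2923 in that fit (0.14%). H3K27me3 fell where H3K4me3 rose at 52 promoters, 6.33% of the 821 against 9.7% of all promoters. Of these 52, 20 were among 146 on chromosome 11 up to Pdk2, 15 among 159 on chromosome 12 and 13 among 324 on chromosome 7. The opposite exchange was called at 28, or 3.41% against 5.08% of all promoters. Relative to block flanks the first exchange was called at 69 promoters (8.40%, against 9.26% of all promoters). The second was called at 30 in that fit (3.65%, against 4.44%).

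Gsc, the goosecoid homeobox gene that marks the organizer of the early embryo, showed the first exchange on chromosome 12. Its promoter (ENSMUSG00000021095, chromosome 12, 104471331 to 104475330) had 717 and 682 CPM of H3K4me3 in cKO cells, against 38.5 and 44.5 CPM in WT cells. For H3K27ac it had 614 and 585 CPM in cKO cells, against 34.3 and 18.1 CPM in WT cells, and for H3K27me3 113 and 59.0 CPM in cKO cells, against 428 and 359.8 CPM in WT cells. The genotypes stood far apart in these 3 marks and overlapped in none of them. The log2 change was 4.54 ± 0.21 (SE) in H3K27ac (edgeR adjusted p = 2.1e-15) and -2.19 ± 0.28 in H3K27me3 (edgeR adjusted p = 2.8e-13). Relative to the block flanks the H3K27me3 change was -2.40 ± 0.29. Its H2AK119ub1 was 129 and 102 CPM in cKO cells, against 133 and 152 CPM in WT cells, a log2 change of -0.30 ± 0.21 that did not pass the test.

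Also on chromosome 12, Dio3os, a noncoding RNA gene beside Dio3, had 322 and 247 CPM of H3K27ac in cKO cells, against 12.2 and 17.1 CPM in WT cells. Its window overlaps that of Dio3, so their reads cannot be told apart. Ccdc88c, which encodes a Dishevelled-binding protein of Wnt signalling, had the chromosome's lowest p for a fall of H2AK119ub1, with 75.5 and 91.1 CPM in cKO cells, against 140.02 and 117 CPM in WT cells (log2 -0.62 ± 0.23, edgeR adjusted p = 0.0225). H3K27me3 fell at Ccdc88c too and H3K4me3 rose by 2.00 ± 0.14 on the log2 scale. The H2AK119ub1 call of Ccdc88c was lost without cKO replicate 1, cKO replicate 2 or WT replicate 1, with log2 changes of -0.50, -0.77 and -0.49. Rdh14, a retinol dehydrogenase gene, had the lowest p for a rise of H2AK119ub1, 101 and 115 CPM in cKO cells, against 43.8 and 33.5 CPM in WT cells, which was lost without cKO replicate 1 at a log2 change of 1.57.

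Foxa1, Tnfaip2 and Hhipl1 went the other way on chromosome 12. Foxa1, a pioneer transcription factor of endoderm, had 356 and 361 CPM of H3K27me3 in cKO cells, against 82.7 and 82.4 CPM in WT cells, a rise of 2.12 ± 0.28 (edgeR adjusted p = 5.1e-12). H3K27ac at Foxa1 fell, with 48.9 and 56.5 CPM in cKO cells, against 150.5 and 138 CPM in WT cells. Tnfaip2, a gene induced by tumour necrosis factor, had 27.5 and 31.8 CPM of H3K4me3 in cKO cells, against 169 and 169.5 CPM in WT cells, while its H3K27me3 was 150.5 and 182 CPM in cKO cells, against 83.6 and 40.4 CPM in WT cells. All 4 marks passed the test there: both active marks fell, and H2AK119ub1 and H3K27me3 rose by 1.04 ± 0.26 and 1.43 ± 0.30. At Hhipl1, a relative of the hedgehog-interacting protein gene, H3K27ac fell with 112 and 119.9 CPM in cKO cells, against 513 and 486 CPM in WT cells, and H2AK119ub1 and H3K27me3 rose by 0.75 ± 0.23 and 1.54 ± 0.37. Relative to block flanks the H2AK119ub1 rises did not pass at Tnfaip2 (0.77 ± 0.26, edgeR adjusted p = 0.0655) or Hhipl1 (0.48 ± 0.22, edgeR adjusted p = 0.19).

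On chromosome 7, Hdgfl3, a member of the family of hepatoma-derived growth factor, gained both active marks. Its promoter (ENSMUSG00000025104, chromosome 7, 81932474 to 81936473) had 434 and 411 CPM of H3K4me3 in cKO cells, against 22.6 and 26.5 CPM in WT cells and 202 and 201 CPM of H3K27ac in cKO cells, against 16.3 and 16.8 CPM in WT cells. Its H3K27me3 fell, with 146 and 146 CPM in cKO cells, against 513 and 332 CPM in WT cells. The summed flanks of its block were higher in cKO in that mark, but the flanks of Hdgfl3 itself were lower, with a log2 difference of -0.45. Kctd15, which limits the formation of neural crest in zebrafish, had the lowest p of the chromosome both for a fall of H3K27me3 (86.2 and 61.7 CPM in cKO cells, against 268 and 289.8 CPM in WT cells) and for a rise of H3K27ac (395 and 429 CPM in cKO cells, against 20.7 and 23.6 CPM in WT cells). H2AK119ub1 at Kctd15 fell as well, with a log2 change of -0.55 ± 0.22 (edgeR adjusted p = 0.0442).

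Zfp78, a zinc finger gene, had the lowest p of chromosome 7 for a fall of H3K4me3. It had 15.8 and 19.3 CPM in cKO cells, against 165 and 171 CPM in WT cells, a log2 change of -3.24 ± 0.18, and -3.80 ± 0.19 relative to the block flanks. Ifitm3, an interferon-induced gene that restricts virus entry, had 115 and 112 CPM of H3K27ac in cKO cells, against 267 and 266 CPM in WT cells and a rise of H2AK119ub1 of 1.18 ± 0.28, which did not pass relative to block flanks (edgeR adjusted p = 0.063). Sytl2, a Rab27 effector of vesicle transport, had 276 and 277 CPM of H3K27me3 in cKO cells, against 71.5 and 34.2 CPM in WT cells, a rise of 2.39 ± 0.30, with falls in both active marks. Spty2d1, the counterpart of a yeast histone chaperone, had the lowest p for a rise of H2AK119ub1, 142 and 117 CPM in cKO cells, against 30.8 and 48.8 CPM in WT cells. The window of Spty2d1 overlaps that of another gene, and its call was lost without cKO replicate 1 at a log2 change of 1.56. H3K4me3 at Spty2d1 was called a rise of 0.23 ± 0.09 without the block offset and a fall of -0.33 ± 0.11 (log2) with it.

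Chromosome 11 held named promoters on both sides of its step. From Fam117a on, Jup, which encodes the junction protein plakoglobin, had 453 and 432 CPM of H3K4me3 in cKO cells, against 21.6 and 35.9 CPM in WT cells (ENSMUSG00000001552, chromosome 11, 100395750 to 100399749). H3K27me3 at Jup fell, with 75.2 and 102 CPM in cKO cells, against 203 and 193 CPM in WT cells. The summed flanks of its block were higher in cKO in that mark, with a log2 difference of 0.47 ± 0.02, but the flanks of Jup itself had -0.25. Slc16a6, of the monocarboxylate transporter family, had 442 and 396 CPM of H3K27ac in cKO cells, against 48.6 and 49.7 CPM in WT cells. Plekhm1, an adaptor of lysosome fusion that osteoclasts need, rose in all 4 marks. Its H2AK119ub1 was 202 and 211 CPM in cKO cells, against 84.7 and 73.4 CPM in WT cells (log2 1.38 ± 0.21, edgeR adjusted p = 1.7e-08). Relative to the block flanks that change was 0.88 ± 0.21 (edgeR adjusted p = 0.0163), and H3K4me3 rose too, but H3K27ac (0.17 ± 0.17) and H3K27me3 (0.23 ± 0.29) did not pass. Plcd3, a phospholipase C gene, had 342 and 275 CPM of H3K27me3 in cKO cells, against 44.8 and 76.9 CPM in WT cells, and H3K27ac and H3K4me3 fell there, with log2 changes of -1.17 ± 0.16 and -0.79 ± 0.09.

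Up to Pdk2, Wwc1, a gene of the Hippo pathway, had 47.3 and 69.2 CPM of H3K27me3 in cKO cells, against 335 and 202 CPM in WT cells, a fall with a log2 change of -2.21 ± 0.29 (edgeR adjusted p = 2.6e-12). Both active marks rose at Wwc1, H3K4me3 by 1.85 ± 0.10. Rap1gap2, a GTPase-activating protein of Rap1, had the chromosome's lowest p for a fall of H2AK119ub1, 110.5 and 90.0 CPM in cKO cells, against 194 and 195 CPM in WT cells. That call was lost without cKO replicate 1 or 2, at log2 changes of -1.11 and -0.82. Trim25, a ubiquitin ligase of antiviral RIG-I signalling, had 27.5 and 27.6 CPM of H3K4me3 in cKO cells, against 209.6 and 198 CPM in WT cells, and Evi2 had 48.4 and 64.8 CPM of H3K27ac in cKO cells, against 329 and 328 CPM in WT cells. H3K27me3 and H2AK119ub1 did not pass the test at Trim25 or Evi2, where the 4 log2 changes lay between -0.04 and 0.51.

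**Figure D5:**
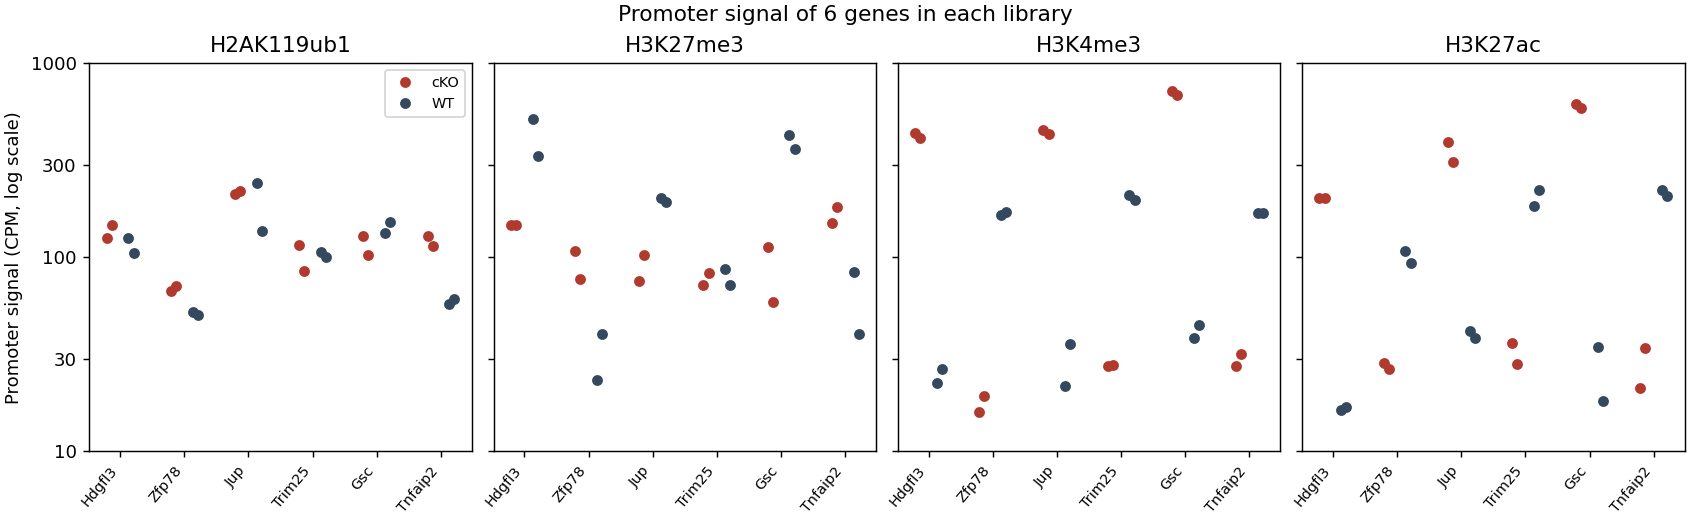
Promoter signal in CPM on a log axis (vertical) of the 6 promoters whose sequences are printed (horizontal), for each mark; red points are the 2 cKO libraries and dark points the 2 WT libraries. Hdgfl3, Jup and Gsc have cKO above WT in H3K4me3 and H3K27ac and below it in H3K27me3, Zfp78 and Tnfaip2 have the reverse, and Trim25 falls in the active marks with overlapping Polycomb values.

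Gene lists are read beside the shares of promoters called higher, which were 16.7% for H2AK119ub1, 12.4% for H3K27me3, 40.5% for H3K4me3 and 30.9% for H3K27ac over all promoters. On the 3 chromosomes these shares were 39.5%, 20.1%, 69.5% and 57.6%, and nothing is read as particular to a list.

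The 3 chromosomes carry several clusters of imprinted genes, expressed from 1 parental copy; 7 of the 37 on the list were measured. H3K4me3 rose at 4 of the 7 (median log2 0.57, against 0.04 over all promoters) and H3K27ac at 2 (0.44, against -0.0049 over all). H2AK119ub1 fell at 1 and H3K27me3 at 2 (medians -0.16 and -0.18, against 0.02 and 0.03). Dio3, a deiodinase that inactivates thyroid hormone, had 368 and 392 CPM of H3K4me3 in cKO cells, against 9.34 and 8.02 CPM in WT cells. Its H3K27me3 fell, with 134 and 165 CPM in cKO cells, against 475 and 435 CPM in WT cells. H19, a noncoding RNA gene, had the lowest p of chromosome 7 for a fall of H2AK119ub1, 45.2 and 89.0 CPM in cKO cells, against 109.7 and 114 CPM in WT cells, a call lost without cKO replicate 1, where the log2 change was -0.33, and without WT replicate 1 or 2. H3K27me3 at H19 fell, with 107 and 108 CPM in cKO cells, against 188 and 205 CPM in WT cells, while its neighbour Igf2 passed no test and had 112 and 139 CPM in cKO cells, against 132 and 109.6 CPM in WT cells. Grb10, an adaptor that dampens insulin signalling, rose in H3K4me3 by 1.38 ± 0.27, and Zrsr1 by 0.57 ± 0.12. Snrpn and Dlk1 were not called in any mark without the block offset. Relative to block flanks H3K27me3 fell at Dlk1 (-0.79 ± 0.27, edgeR adjusted p = 0.0211) and H3K27ac at Snrpn (-1.01 ± 0.42, edgeR adjusted p = 0.0448). In that fit the list had 3 rises of H3K4me3, 3 falls of H3K27me3, 1 fall of H2AK119ub1, and 1 rise and 1 fall of H3K27ac.

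Of 39 skeletal and matrix genes 15 were measured. H3K4me3 rose at 11 and fell at 3 (median 1.06), and H3K27ac rose at 10 and fell at 1 (0.77). H2AK119ub1 rose at 4 (0.02), and H3K27me3 rose at 3 and fell at 3 (-0.04). With the block offset H3K4me3 rose at 6 and fell at 3, H3K27ac rose at 5 and fell at 2, H3K27me3 rose at 3 and fell at 6, and H2AK119ub1 rose at 1 and fell at 2. Nog, a secreted BMP antagonist, had 219.8 and 189 CPM of H3K4me3 in cKO cells, against 33.5 and 29.9 CPM in WT cells and 171 and 176 CPM of H3K27me3 in cKO cells, against 532 and 509 CPM in WT cells. Fgf18, a growth factor of cartilage and bone, had 121 and 63.1 CPM of H3K27me3 in cKO cells, against 334 and 261 CPM in WT cells and rose in H3K4me3 by 2.34 ± 0.14. Axin2, a target and inhibitor of Wnt signalling, rose in H3K4me3 by 2.30 ± 0.10 and in H3K27ac by 2.21 ± 0.21. Ltbp2, a protein of extracellular microfibrils, rose in H3K4me3 by 1.61 ± 0.10, but its window is shared with another gene. Col1a1, the main collagen gene of bone, next to the step, had 227 and 225 CPM of H2AK119ub1 in cKO cells, against 85.6 and 122 CPM in WT cells and 187 and 165 CPM of H3K27me3 in cKO cells, against 44.0 and 72.3 CPM in WT cells. These were rises of 1.12 ± 0.21 and 1.59 ± 0.30, while H3K4me3 fell with a log2 change of -0.37 ± 0.09; Col1a1 was singled out after its values were seen.

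Of 54 developmental transcription factors 7 were measured. H3K4me3 rose at 5 and fell at 2 (median 0.88), and H3K27ac rose at 4 and fell at 1 (0.77). H3K27me3 fell at 3 and rose at 2 (-0.04), and H2AK119ub1 rose at 1 (-0.12). In the fit against block flanks H3K4me3 and H3K27ac each rose at 3 and fell at 2, and H3K27me3 rose at 1 and fell at 3. The H2AK119ub1 rise did not pass in that fit, in which 1 promoter fell. Sox11, a regulator of progenitors, had 590.2 and 533 CPM of H3K4me3 in cKO cells, against 62.5 and 60.8 CPM in WT cells and 86.2 and 80.7 CPM of H3K27me3 in cKO cells, against 290.5 and 232 CPM in WT cells. Otx1, a homeobox gene of the forebrain, had 73.4 and 52.2 CPM of H3K27me3 in cKO cells, against 262 and 207 CPM in WT cells and rose in H3K4me3 by 1.53 ± 0.09. Sox9, the regulator of cartilage cells, rose in H2AK119ub1, H3K4me3 and H3K27ac, with 774 and 772 CPM of H3K4me3 in cKO cells, against 426 and 416 CPM in WT cells. Relative to the block flanks the H3K4me3 change at Sox9 was 0.15 ± 0.09 and did not pass the test, against 0.88 ± 0.07 before.

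Cytokine genes, 4 measured of 26, split by gene. H3K4me3 and H3K27ac each rose at 2 and fell at 2 (medians -0.31 and -0.47), and H2AK119ub1 rose at 2 (0.72). The H3K27me3 median was 0.06, with single promoters between -0.45 and 0.55 that did not pass the test. Neither H2AK119ub1 rise passed relative to block flanks (edgeR adjusted p = 0.14 at Ccl7 and 0.0859 at Ccl9). In that fit H3K4me3 rose at 1 and fell at 2 and H3K27ac rose at 2 and fell at 2. Ccl7 and Ccl9 lie between 80 and 90 Mb, in the block that spans the step. Flanks there stood at 0.25 ± 0.05 in H2AK119ub1 and -0.79 ± 0.09 in H3K27ac. The whole block had 0.41 ± 0.03 and 0.58 ± 0.06, so the offset does not measure these 2 genes against their near surroundings. Ccl7, a chemokine that attracts monocytes, had 82.5 and 56.5 CPM of H3K27ac in cKO cells, against 227 and 201 CPM in WT cells and 162 and 140.1 CPM of H2AK119ub1 in cKO cells, against 79.4 and 77.8 CPM in WT cells. Ccl9, another chemokine, fell in H3K27ac with 145 and 111 CPM in cKO cells, against 451 and 397 CPM in WT cells, but shares its window. Il16 rose in H3K27ac, with 79.1 and 105 CPM in cKO cells, against 21.1 and 33.1 CPM in WT cells, and Cxcl16 with 59.4 and 79.7 CPM in cKO cells, against 41.8 and 44.9 CPM in WT cells.

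Growth and cell cycle genes, 9 measured of 38, had more rises than falls in each mark. H3K4me3 rose at 7 and fell at 1 (median 0.67), H3K27ac rose at 5 and fell at 1 (0.52), H2AK119ub1 rose at 5 (0.59) and H3K27me3 at 1 (0.45). Stat3, a transcription factor of cytokine signalling, had 157 and 163 CPM of H2AK119ub1 in cKO cells, against 63.5 and 81.3 CPM in WT cells and 705 and 602 CPM of H3K27ac in cKO cells, against 349.6 and 346 CPM in WT cells. Its neighbour Stat5b rose in H3K4me3 by 0.98 ± 0.08, and Erbb2, a receptor tyrosine kinase, in H3K27me3 by 1.37 ± 0.31. On chromosome 12 Fos, an AP-1 subunit, had 552 and 449.7 CPM of H3K4me3 in cKO cells, against 254 and 226 CPM in WT cells. Relative to block flanks H3K4me3 rose at 2 and fell at 1 of the 9, H3K27ac and H3K27me3 each rose at 1, and none of the 5 rises of H2AK119ub1 passed. Stat3 then had edgeR adjusted p = 0.0796 in H2AK119ub1 and 0.51 in H3K27ac. The promoter that fell in H3K4me3 was that of Ccne1, a cyclin gene, with a log2 change of -0.34 ± 0.11 against 0.52 ± 0.10 without the offset, both called; it is named after its values were seen. The change at Fos, 0.22 ± 0.12, did not pass the test.

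A list of Polycomb, BAP1 partner and other chromatin genes, 5 measured of 16, had rises and no called fall: 3 in H2AK119ub1 (median 0.67), 4 in H3K27me3 (1.08), 5 in H3K4me3 (0.78) and 4 in H3K27ac (1.00). Pcgf2, a PRC1 subunit on chromosome 11, had 150.5 and 151 CPM of H3K27me3 in cKO cells, against 40.5 and 50.5 CPM in WT cells and 495 and 516 CPM of H3K27ac in cKO cells, against 311 and 282 CPM in WT cells. Cbx1, which encodes a heterochromatin protein, had 173 and 218 CPM of H2AK119ub1 in cKO cells, against 129.9 and 94.6 CPM in WT cells and also rose in all 4 marks. Foxk2, a partner of BAP1, rose in H3K4me3 by 0.68 ± 0.08 and in H3K27ac by 1.01 ± 0.16. Kmt5c, a methyltransferase of histone H4 on chromosome 7, rose in H3K27ac, with 234 and 236 CPM in cKO cells, against 106 and 119.6 CPM in WT cells. Against block flanks 3 of the 5 rose in H3K4me3 and 1 each in H3K27me3 and H3K27ac, which were Pcgf2 for H3K27me3 and Cbx1 for H3K27ac. The 3 rises of H2AK119ub1 did not pass in that fit.

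Widely expressed genes, 3 measured of 41, had rises in 3 marks. H2AK119ub1 rose at 3 of 3 (median 0.73), H3K4me3 at 2 (0.35) and H3K27ac at 1 (0.48). The H3K27me3 median was 0.66. Relative to the block flanks the H2AK119ub1 change at Psmd3 was 0.32 ± 0.22, and none of the rises of this list passed the test. Psmd3, a proteasome subunit gene, had 145 and 139 CPM of H2AK119ub1 in cKO cells, against 96.2 and 74.4 CPM in WT cells and 581 and 612 CPM of H3K4me3 in cKO cells, against 396 and 348 CPM in WT cells. Psma6, also of the proteasome, had 102 and 85.8 CPM of H2AK119ub1 in cKO cells, against 47.6 and 65.0 CPM in WT cells. Of 19 blood cell markers only Cd68 and Spn were measured, and their log2 changes, between -0.44 and 0.31 over the 4 marks, did not pass the edgeR test. H3K4me3 at Spn fell relative to block flanks, with a log2 change of -1.21 ± 0.47 (edgeR adjusted p = 0.0333). Ramp2, the single endothelial marker measured of 3, rose in H3K4me3 by 1.01 ± 0.16, but the change of 0.28 ± 0.16 relative to its block flanks did not pass the test. None of 3 epithelial markers was among the named genes of the 3 chromosomes. The part of other cell types in the results was not tested.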

How the data were processed

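Whole-number read counts in 50 bp bins over 10 kb around 3925 gene starts were deposited for 16 libraries. The authors' reads were processed with cutadapt 1.18, Bowtie2 2.4.5, Picard 2.25.5, SAMtools 1.9 and bedtools 2.30.0 on GRCm38, per the submitters' processing notes. Each read falls in 3 neighbouring bins, so counts overstate the reads behind them. Bins 1 to 20 and 181 to 200 (flanks) and 61 to 140 (promoters) were summed. Flank and block values are percentages of autosomal counts. Blocks of 20 Mb with at least 5 genes were used, and differences carry an SE from 2 libraries per genotype.

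Promoters were tested with edgeR 4.0.16 (R 4.3.3) quasi-likelihood on all promoters passing a minimum count of 10, with TMM scaling from autosomal windows and Benjamini-Hochberg adjustment at 0.05. A second fit used the flank counts of each promoter's block as offset. The fit was tested on simulated data. Alternatives were DESeq2 1.42.0, other promoter widths, block sizes and denominators, a replicate block and leaving out each library. Gene names came from RefSeq by position within 500 bp, for 725 of 829 genes; 90 genes share 4 kb windows. The named genes were those with the lowest p in each direction for each mark and chromosome, and for each list. The members and lists (imprinted, skeletal and matrix, developmental transcription factor, cytokine, growth and cell cycle, Polycomb, BAP1 partner and other chromatin, widely expressed, blood, endothelial and epithelial genes) were chosen with earlier results of these data known.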

Additional observations from a re-analysis of the deposited data

How the results depend on the processing

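The block medians and the promoters named by rule, each in the mark that named it, kept their direction under the alternatives run. Relative to block flanks the balance of H3K27me3 calls turned to near that of all promoters, and H3K4me3 at Spty2d1 and Ccne1 turned too. Promoters of 1 kb to each side gave 143 higher and 7 lower in H2AK119ub1 and 72 higher in H3K27me3, and of 5 kb 274 higher in H3K27me3. Relative to block flanks 28 were higher in H2AK119ub1, 69 in H3K27me3 (85 lower), 274 in H3K4me3 (163 lower) and 198 in H3K27ac (139 lower). With library sizes from flanks of other autosomes, chosen after seeing the data, 5 were lower in H2AK119ub1, 53 in H3K4me3 and 52 in H3K27ac. The cause was not tested.

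For block medians, in the order H2AK119ub1, H3K27me3, H3K4me3 and H3K27ac, other autosomes as denominator gave 0.50, 0.52, 0.65 and 0.68 in flanks and 0.53, 0.44, 0.70 and 0.69 in promoters. Library sizes of the promoter fit gave 0.35, 0.34, 0.33 and 0.45 in flanks, and in promoters 0.24 for H3K27me3, 0.73 for H3K4me3 and 0.60 for H3K27ac. Blocks of 10 Mb gave 0.28 for H3K27me3 and 0.43 for H3K4me3 in flanks and 0.53 for H3K4me3 in promoters. Blocks of 40 Mb gave 0.60 and 0.58 for H3K4me3 flanks and promoters. Medians over genes gave 0.20 for H3K4me3 flanks, and 0.48, 0.38 and 0.59 for H3K27me3, H3K4me3 and H3K27ac promoters. Without shared windows the H3K4me3 flanks gave 0.57. Without chromosome 11 up to 80 Mb, an alternative chosen after seeing the data, H3K4me3 flanks gave 0.56 and promoters 0.50 for H2AK119ub1 and 0.60 for H3K27ac.

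Leaving out each library gave 3 to 278 higher and 0 to 17 lower in H2AK119ub1, 89 to 164 higher and 34 to 75 lower in H3K27me3, 536 to 559 and 74 to 79 in H3K4me3, and 411 to 465 and 55 to 72 in H3K27ac. Flank medians ran over 0.39 to 0.41, 0.39 to 0.44, 0.45 to 0.54 and 0.45 to 0.58, and promoter medians over 0.40 to 0.43, 0.30 to 0.36, 0.55 to 0.57 and 0.53 to 0.55. The replicate block gave 316 higher and 20 lower for H2AK119ub1, 158 higher and 56 lower for H3K27me3, 576 higher and 81 lower for H3K4me3, and 482 higher and 86 lower for H3K27ac. Deviations of same-numbered libraries correlated at -0.04 to 0.08, so they shared little. With 2 libraries per genotype this cannot show whether the libraries were prepared as pairs.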
